A study of Drosophila melanogaster with 2 samples.

Results

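Wider divergent promoters are places where 2 protein-coding genes start back to back, in opposite directions, with a stretch of DNA between their transcription start sites (TSSs). Of the 3257 peaks in the reproducible list of a Sry-beta ChIP-seq experiment (the IDR list, made of peaks that recur between replicates), 686 (21.1%) lay at such promoters. A peak was counted when its summit, the base the authors marked as its highest point, was within 500 bp of a protein-coding TSS in Ensembl release 115, and when that TSS had its closest head-to-head TSS on the other strand more than 250 and at most 1000 bp away. The distance between the paired TSSs is called the gap. The 686 peaks belonged to 573 gaps and 569 gene pairs, and they made up 34.5% of the 1988 peaks within 500 bp of a protein-coding TSS. The remaining promoter peaks comprised 318 at tight pairs, with a gap of 1 to 250 bp, and 984 whose nearest TSS had no head-to-head partner within 1000 bp. Another 1269 peaks were farther than 500 bp from any TSS.

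The series had 1 group of 2 ChIP-seq libraries, biological replicates 2 and 4, each made from whole embryos of both sexes collected at 0 to 12 h from a transgenic fly line that makes Sry-beta with a C-terminal GFP tag. The labels give Sry-β as the antibody target and fragments of 200 to 800 bp after sonication, and they do not say which promoter drives the transgene. Their free text describes each library as an input control, whereas the assay title and antibody name a ChIP and peaks were called from them, so both were read as ChIP. Whole embryos pool all tissues and stages of that interval, so a strong peak in few cells cannot be told apart from a weaker one in many.

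Sry-beta is a C2H2 zinc finger protein with an N-terminal zinc finger-associated domain, and its gene lies in the serendipity cluster beside Sry-alpha and Sry-delta. In the compact fly genome, genes needed in most cells often lie head to head and share the stretch of open, nucleosome-poor chromatin between their start sites. Well-known sequence elements of such promoters are the DRE, bound by DREF and, at an overlapping core, by the boundary protein BEAF-32, and Motif 1, bound by M1BP.

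The gaps below are shown because they hold 2 of the highest members and are short enough to print from one start site to the other. All sequences are from the RefSeq release 6 genome (dm6) and run 5′ to 3′ on the strand of the gene named first; each gap ends just before the TSS of that gene. Capitals mark the palindrome TAGCTA. The gap between HDAC3, a histone deacetylase, and Hcs, which attaches biotin to carboxylases, covered chr3R:5474601-5474898 on the minus strand. The gap between CG5776 and spict, a regulator of BMP signalling at the synapse, covered chr2L:12704452-12704724 on the minus strand and held TAGCTA 3 times.
HDAC3 gap: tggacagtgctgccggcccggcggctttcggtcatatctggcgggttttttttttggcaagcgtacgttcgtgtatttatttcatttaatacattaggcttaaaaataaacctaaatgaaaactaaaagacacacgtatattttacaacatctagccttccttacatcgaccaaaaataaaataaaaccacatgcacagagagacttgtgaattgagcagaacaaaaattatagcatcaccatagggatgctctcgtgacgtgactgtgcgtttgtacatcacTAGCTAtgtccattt
CG5776 gap: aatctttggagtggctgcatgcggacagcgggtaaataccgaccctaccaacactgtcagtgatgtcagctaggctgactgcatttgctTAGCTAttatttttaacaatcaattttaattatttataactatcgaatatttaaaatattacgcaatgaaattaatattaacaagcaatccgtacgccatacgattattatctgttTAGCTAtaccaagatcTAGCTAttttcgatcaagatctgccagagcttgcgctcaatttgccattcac

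The summit was base 210 of 298 in the HDAC3 gap and base 171 of 273 in the CG5776 gap, so in each it was nearer to the gene named first. In the HDAC3 gap the palindrome was next to the TSS and more than 50 bp from the summit. The summit base and 50 bases on either side of it, at 4 further high members, show the range of base composition. They are the windows of Ugt316A1, a UDP-glycosyltransferase gene (chr3L:19062831-19062931, minus strand, 42.6% G or C), Kaz (chr3R:24830060-24830160, minus strand, 31.7%), CG3587 (chrX:1940161-1940261, plus strand, 31.7%) and l(2)37Cb, a gene for a DEAH-box helicase (chr2L:19127046-19127146, minus strand, 17.8%). Only the first of the 4 held the palindrome, in capitals.
Ugt316A1 summit: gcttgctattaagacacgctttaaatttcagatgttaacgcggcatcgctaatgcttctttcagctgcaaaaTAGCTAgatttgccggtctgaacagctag
Kaz summit: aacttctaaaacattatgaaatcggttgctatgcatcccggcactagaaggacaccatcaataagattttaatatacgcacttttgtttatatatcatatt
CG3587 summit: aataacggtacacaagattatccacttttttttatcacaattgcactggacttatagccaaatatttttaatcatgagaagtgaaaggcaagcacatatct
l(2)37Cb summit: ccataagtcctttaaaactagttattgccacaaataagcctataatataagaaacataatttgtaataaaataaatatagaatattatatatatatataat

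Shorter stretches show the words around which the results on sequence turn, each at the highest member that held it or, for TAGCTA, at further high members. The 5 TAGCTA sites below are those of CG2794 (chr2L:564116-564155, plus strand), rdx, which encodes an adaptor that directs the Hedgehog effector Ci to degradation (chr3R:14032139-14032178, minus strand), Rpp14a (chr3R:30056788-30056827, plus strand), Pex11c, a peroxisome gene (chr3R:23258299-23258338, plus strand), and E(var)3-9 (chr3R:8993041-8993080, minus strand). The last 3 sequences hold the DRE word TATCGATA at tank (chr2L:4838022-4838063, minus strand), the Motif 1 word GGTCACAC on the opposite strand at Vps4, an ATPase of the ESCRT pathway (chrX:17907628-17907669, plus strand), and AGAGATG, a core shared by the published recognition sequences of Sry-beta and Sry-delta, on the opposite strand at the chromatin remodeller Chd1 (chr2L:2987725-2987765, minus strand). Capitals mark the word.
CG2794: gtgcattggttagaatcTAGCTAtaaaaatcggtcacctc
rdx: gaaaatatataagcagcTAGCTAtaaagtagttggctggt
Rpp14a: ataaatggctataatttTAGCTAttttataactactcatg
Pex11c: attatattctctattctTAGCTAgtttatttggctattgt
E(var)3-9: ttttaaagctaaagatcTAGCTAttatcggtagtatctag
tank: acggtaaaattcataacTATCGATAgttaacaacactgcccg
Vps4: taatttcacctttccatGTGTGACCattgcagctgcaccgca
Chd1: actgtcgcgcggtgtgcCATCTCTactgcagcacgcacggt

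The highest member lay between mRpL43, a gene of the mitochondrial ribosome, and CG30183, with a signal of 11009 in the reproducible list, 2938 in replicate 2 and 8081 in replicate 4. Signal is the authors' signal value of a peak, on a scale they do not state, so it is read only within a list. Each value put this peak among the 10 highest of its list, at rank 3, 9 and 4. The peak between Ugt316A1 and Sfxn2, a gene of the mitochondrial sideroflexin carriers, had signals of 10183, 3788 and 6506 in the same order and ranks of 5, 3 and 13. The peak between CG17597 and ScpX, a peroxisomal thiolase gene, had 9323, 2818 and 6505. The peak between Snr1, a component of the Brahma chromatin remodeller, and mRpL44, a gene of the mitochondrial ribosome, had signals of 8830, 2262 and 6763. The HDAC3 peak had 8605, 2504 and 6181. The 5 peaks were thus near the top of both replicates.

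Members took 6 of the 20 highest, 33 of the 100 highest and 169 of the 500 highest peaks of the reproducible list, a share of 33.8% in the top 500 against 21.1% in the whole list. The peak between Kaz and CG43273 had a signal of 8727, just above that of HDAC3. The next highest members after HDAC3 lay at the pairs CG5776 and spict, CG3587 and CG3857, l(2)37Cb and l(2)37Cd, and Clp and PGAP2. Clp encodes a subunit of the machinery that forms the 3′ ends of mRNAs, and PGAP2 acts on GPI anchors. Signals at these pairs ran from 7219 to 7551. They were followed by CG2794 and uncNacbeta, Pex13, part of the peroxisomal import machinery, with fsd, Sptz with ninaG, CG3071 with temp, a subunit of the enzyme that adds lipid anchors to Rab proteins, and ttm50, a mitochondrial import gene, with CG2712. The list of 20 ended with beta'COP of the COPI coat and CG9302, Herp and r2d2, the partner of Dicer-2 in RNA interference, Srlp and Aos1, a subunit of the SUMO-activating enzyme, Hs2st and RanGAP, a regulator of the Ran GTPase, and rdx with CG3061, at 5980. Over all 686 members the signal ran from 170 to 11009, with a median of 358 and quartiles of 225 and 1073.

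Member summits lay mostly between the paired start sites and just upstream of one of them. In the reproducible list 613 of 686 summits (89.4%, Wilson 95% interval 86.8 to 91.5%, which covers the number of peaks only) were in the gap, 72 were inside the nearest gene and 1 was at its TSS. The median position was 90 bp upstream of the nearest TSS, with quartiles of 133 and 49 bp upstream, and the median distance to the partner's TSS was 303.5 bp. A band more than 50 and at most 150 bp upstream held 390 summits (56.9%), and 145 were within 50 bp of the TSS. All 20 of the highest members were in the gap, 41 to 188 bp upstream of their nearest gene, and 99 of the 100 highest were in the gap. In 4 signal classes of equal size, from highest to lowest, 97.7%, 91.8%, 85.4% and 82.6% of summits were in the gap. In replicate 2 the classes had 97.5%, 89.8%, 81.5% and 76.6%, and in replicate 4 they had 92.1%, 83.0%, 83.1% and 83.1%, so the highest class had the largest share in all 3 lists, while the other 3 classes of replicate 4 were level.

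The 2 replicates placed the same peaks at different points. Of the 573 members found in both replicates, the median position was 74 bp upstream in replicate 2 and 105 bp upstream in replicate 4. The summit was farther upstream in replicate 4 at 386 of them, farther upstream in replicate 2 at 179 and at the same base at 8, with a median shift of 15 bp. Since these members were matched within 100 bp of the member's summit, the matching itself limits how large the shift can be. Positions are therefore given per replicate where classes are compared. To do this the 3257 highest peaks of each replicate's own list were put through the same rule, which found 629 members in replicate 2 and 755 in replicate 4. With 2 replicates an exact two-sided permutation test cannot give a p below 0.5, so differences are set against the spread between replicates and no p is given. The labels call them biological replicates and do not describe the separate collections.

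The typical distance from the TSS did not keep up with the width of the gap. Since a summit inside a gap is assigned to its nearer TSS, it cannot be farther from it than the midpoint. In gaps of over 250 to 400 bp, 367 members had a median position of 83 bp upstream, where the midpoint of the median gap was at 152 bp. In gaps of over 400 to 600 bp, 198 members had a median of 119 bp upstream with a midpoint at 246 bp. In gaps of over 600 to 800 bp the median was 102 bp upstream for 80 members with a midpoint at 344 bp, and in gaps of over 800 to 1000 bp it was 76 bp upstream for 41 members with a midpoint at 444 bp. The medians in the 4 widths were 73, 59, 50 and 42.5 bp upstream in replicate 2 and 90, 122.5, 137 and 116 bp upstream in replicate 4, so the replicates moved in opposite directions and both stayed far short of the midpoint in the wider gaps. Across members the rank correlation of gap width and distance to the TSS was 0.207, given as a description over peaks of the same libraries.

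**Figure D1:**
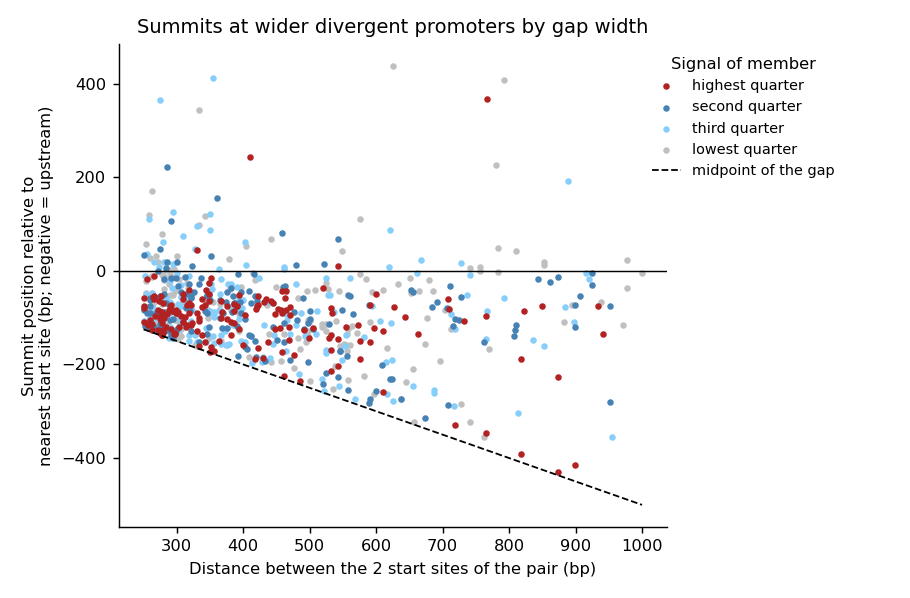
Each point is 1 of the 686 members, plotted by the distance between the paired start sites (x, bp) and the position of its summit relative to the nearest start site (y, bp, negative values upstream), coloured by signal class (4 classes of equal size) in the reproducible list. Most points stay within 150 bp of the start site as gaps widen, and in gaps over 600 bp few lie near the dashed line, which marks the midpoint of the gap.

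Few summits in the widest gaps were central. Shares were first taken over all members, including those with a summit outside the gap. The central stretch, 33.3% of the gap in length, held 33.2% of members in gaps of over 250 to 400 bp, 26.3% in gaps of over 400 to 600 bp, 25% in gaps of over 600 to 800 bp and 12.2% in gaps of over 800 to 1000 bp. Replicate 2 gave 24.8%, 15.6%, 11.3% and 4.17%, and replicate 4 gave 41.5%, 33.2%, 31.7% and 14.6%, the same order at different levels. Among summits between the start sites only, the shares were 37.5%, 28.3%, 29.4% and 13.9% in the reproducible list. They were 27.5%, 18%, 14.3% and 5.56% in replicate 2 and 50.6%, 37.4%, 35.6% and 16.2% in replicate 4. Counted this way, replicate 4 was above 33.3% in all but the widest gaps, and replicate 2 was below it in every width. Over all members the share was 29.0% in the reproducible list, 18.6% in replicate 2 and 36.4% in replicate 4, so its level differed between the replicates more than it did between neighbouring widths.

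The band more than 50 and at most 150 bp upstream held a larger share of members than of the other promoter peaks. Members had 49.9% in replicate 2 and 53.0% in replicate 4, tight pairs had 27.7% and 23.8%, and promoter peaks without a partner had 29.9% and 23.3%. The means were 51.5 ± 2.16% for members, 25.7 ± 2.74% for tight pairs and 26.6 ± 4.66% for peaks without a partner (SD, n = 2 each), a difference larger than the spread between replicates. The gap sets part of it, because a tight pair leaves no room for summits far upstream and a wide pair limits them to the midpoint. In gaps of over 600 to 1000 bp, where the midpoint of the median gap was at 366 bp, the band held 36.4% of 121 members in the reproducible list and 35.5 ± 0.424% in the replicates (SD, n = 2). That was above the mean of peaks without a partner by more than their spread and below that of all members.

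Members and peaks without a partner were upstream of their nearest TSS at like shares, 85.8 ± 0.728% and 85.0 ± 0.327% (SD, n = 2 each). They differed from tight pairs, at 61.7 ± 10.3%, where many summits lay inside a gene. The median position was 62 and 106 bp upstream for members in replicates 2 and 4, 23 and 9 bp upstream for tight pairs, and 78 and 155 bp upstream for peaks without a partner. Members were closer to the TSS than peaks without a partner in each replicate. The gap limits these positions too. A summit inside a gap cannot be farther from its nearest TSS than the midpoint, and a tight pair leaves little room upstream. Peaks without a partner were limited only by the promoter window of 500 bp and by their nearest TSS. The replicates themselves differed in these medians, with an SD of 31.1 bp for members and 54.4 bp for peaks without a partner (n = 2 each).

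**Figure D2:**
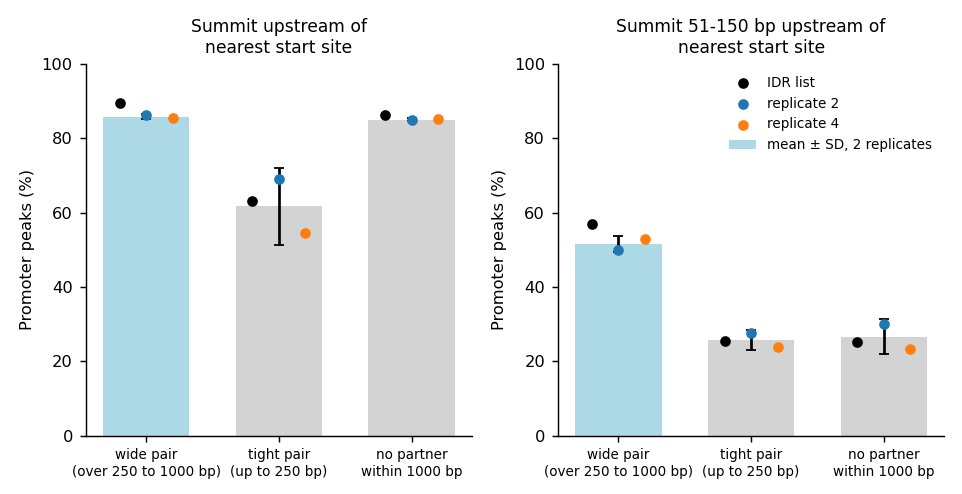
Share of promoter peaks (y, %) whose summit was upstream of the nearest start site (left panel) or more than 50 and at most 150 bp upstream of it (right panel), for wide pairs, tight pairs and start sites without a partner (x); bars and whiskers are the mean and SD of the 2 replicates and points are the reproducible list and each replicate. In the right panel wide pairs are near 50% and both other classes below 30%, and in the left panel tight pairs are lower than the others.

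Taken as a class, members had somewhat higher signals than the other promoter peaks, but members alone in their gap did not do so throughout. Their median of 358 in the reproducible list compared with 319 at tight pairs and 291 at peaks without a partner. In replicate 2 the medians were 136 for members, 122.6 for tight pairs and 113 for peaks without a partner, and in replicate 4 they were 238, 220 and 205. The ratio of medians was 1.18 ± 0.0335 for members over peaks without a partner and 1.09 ± 0.0209 for members over tight pairs (SD, n = 2), above 1 by more than the spread between replicates. Members alone in their gap had medians of 304 in the reproducible list, 121 in replicate 2 and 185 in replicate 4. These were below tight pairs in every list and below peaks without a partner in replicate 4. With only the highest summit of each gap the medians were 355, 134 and 239, above both classes in every list. The other classes were not split in these ways. In the 4 gap widths from narrow to wide, members had medians of 369, 373, 305 and 363 in the reproducible list, 152, 137, 104 and 119 in replicate 2 and 251.04, 211, 203 and 205 in replicate 4. The narrowest gaps had the highest median in both replicates but not in the reproducible list, where the rank correlation of signal and gap width across members was -0.0889.

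Gene pairs with more than 1 member had higher signals. There were 465 members alone in their gap, with a median of 304, 103 gaps with 2 members, with a median of 613 over those members, and 5 gaps with 3. In 79 of the 103 gaps with 2 members each gene had its own summit, and in 24 both summits had the same nearest gene. Both summits were between the start sites in 77 of the 103, and in the others at least 1 was inside a gene or at its TSS. Summits of a pair were 199 to 716 bp apart with a median of 207 bp, and 93 of the 103 pairs were no more than 250 bp apart. The smallest distance between any 2 summits in the reproducible list was also 199 bp, and whether the list could hold closer pairs is not known, since the peak caller is not given. In 49 of the pairs both summits were listed within one identical interval, and in 98 the intervals overlapped. The higher summit exceeded the lower by 1.53 times in the median, and by less than 2 times in 69 pairs. Whether such pairs are 2 binding events or parts of 1 broad peak was not tested. The numbers of members that shared a gap were 159 of 629 in replicate 2 and 319 of 755 in replicate 4.

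The pair with the largest summed signal was CG13850 and lqfR, an epsin-related gene, with summits of 5219 and 4276 in a gap of 386 bp. It was followed by Rassf, a regulator of the Hippo pathway, with CenB1A, by Rich with the RNA helicase gene Ddx1, and by Chd1 with Bem46. The gap of 765 bp between wdn, a zinc finger gene, and the splicing factor gene Prp39 held 3 summits, and the gap of 610 bp between the kinetochore gene Mis12 and CG9953 held 2. Counting only the highest summit of each gap left 573 members with a median signal of 355 and the same median position, 90 bp upstream.

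Most members were present in both replicates. Within 100 bp of the member's summit, replicate 2 had a summit for 609 members and replicate 4 for 646, both had one for 573 (83.5%) and neither for 4. These matches were sought in each replicate's relaxed list of 30000 peaks, which reaches far into background, so ranks say more. Among its 3257 highest peaks replicate 2 held 494 of the members, replicate 4 held 592 and both held 430, and the median rank of the matched members was 1418 in replicate 2 and 1236 in replicate 4. Signals of the 573 members ranked alike in the replicates, with a Spearman coefficient of 0.769, as a description of peaks chosen for their agreement. Members alone in their gap had a median signal of 121 in replicate 2 and 185 in replicate 4, below the medians of all members in each.

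**Figure D3:**
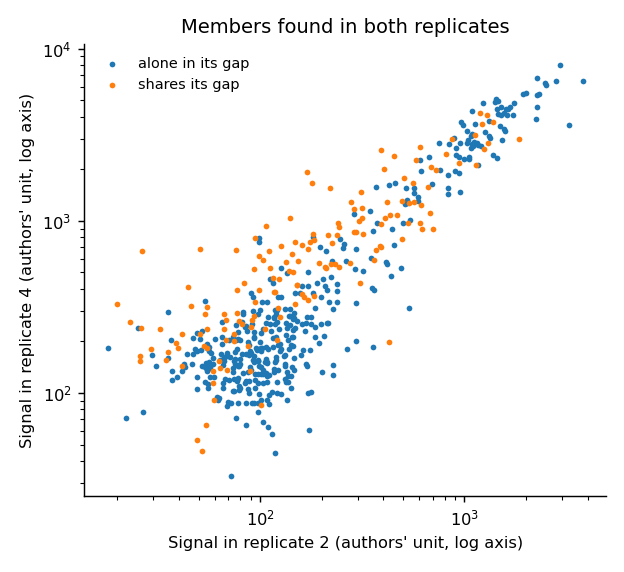
Signal of the 573 members found in both replicates, replicate 2 (x) against replicate 4 (y), in the authors' unit on log axes; colours separate members alone in their gap from members that share it. High members were high in both replicates, while low members formed a broad cloud in which replicates ranked them differently.

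Among 8 words searched on both strands within 50 bp of the summit, TAGCTA and TATAAA were the 2 with their largest share in the highest signal class of every list. TAGCTA was found at 71 of 686 members (10.3%, Wilson 95% interval 8.29 to 12.9%), against 0.948% of windows of the same length centred 500 bp to either side. These flanking windows, used for every word, had a mean content of G and C of 48.3%, against 35.0% at the summits. The part of that difference in the shares was not tested. At the start sites of all wide pairs, whether or not a peak was listed there, a window of the same length centred 90 bp upstream held TAGCTA in 3.94% of cases. From the highest to the lowest of the 4 signal classes the share was 22.1%, 9.36%, 2.34% and 7.56% in the reproducible list. It was 27.4%, 12.1%, 3.18% and 2.53% in replicate 2 and 15.3%, 8.51%, 4.23% and 4.23% in replicate 4, largest in the highest class each time. The 71 members with the word had a median signal of 1161 and the other 615 a median of 328, and 10 of them were among the 100 highest peaks of the reproducible list. The word lay a median of 74.5 bp upstream of the TSS. At the other promoter classes its share was 11.0% of tight pairs and 7.62% of peaks without a partner. In replicates 2 and 4 it was 11.3% and 8.08% for members and 10.9% and 10.7% for tight pairs. Peaks without a partner had 7.10% and 7.18%. Members were thus above tight pairs in replicate 2 and below them in replicate 4, and above peaks without a partner in both.

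The DRE word was found at 30 members (4.37%), against 0.364% of the windows to either side. At the start sites of all wide pairs its share was 4.04%, close to that of members. Motif 1 was found at 17 members (2.48%, with 0.292% to either side and 1.87% at all such start sites). AGAGATG was found at 22 members (3.21%, with 1.17% to either side and 1.48% at all such start sites). None of these 3 words occurred within 50 bp of a member among the 100 highest peaks, and the median signals of members with the DRE, Motif 1 and AGAGATG were 340, 267 and 330. The DRE and Motif 1 lay near the TSS, a median of 25.5 and 20.5 bp upstream. The replicates differed in these shares, with the DRE at 8.11% of members in replicate 2 and 5.17% in replicate 4, Motif 1 at 5.41% and 1.19%, and AGAGATG at 5.56% and 3.18%. In all, 554 members (80.8%) held none of the 4 words within 50 bp. These shares depend on the window, and within 100 bp of the summit they were 12.7% for the DRE, 6.41% for Motif 1, 8.75% for AGAGATG and 17.5% for TAGCTA. Of the 20 highest members 14 held none of them, and the other 6 held TAGCTA.

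Of the 4 remaining words, 2 were about as common at all start sites of wide pairs as at members. CGATA, the core recognised by BEAF-32 and contained in the DRE word, was found at 185 members (27.0%) and at 25.7% of all start sites of wide pairs. TATAAA was found at 149 members (21.7%) and at 21.1% of those start sites. Its share by signal class, from highest to lowest, was 27.9%, 21.6%, 19.9% and 17.4% in the reproducible list, 22.9%, 16.6%, 14.6% and 13.3% in replicate 2 and 30.7%, 22.3%, 26.5% and 24.3% in replicate 4. GAGAGAG was found at 2 members (0.292%), at 1.38% of the windows to either side, at 1.61% of all start sites of wide pairs and at 4.38% of all protein-coding start sites. CAGGTAG, the site of the early embryonic activator Zelda, was found at 5 members (0.729%) and 0.364% of those windows. A match describes letters in the window and not a bound site. The mean content of G and C within 50 bp of the summit was 35.0% for members in the reproducible list, 39.2% for those in replicate 2 and 33.4% for those in replicate 4. It was 35.4% in the windows 90 bp upstream at all start sites of wide pairs. The reproducible list was close to that value, while replicate 2 was above it and replicate 4 below it. By signal class the content of G and C in the reproducible list was 32.1%, 35.0%, 35.8% and 37.2%, from highest to lowest. Content of A and T thus moved with signal beside the shares of TAGCTA and TATAAA, and its part in those shares was not tested.

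**Figure D4:**
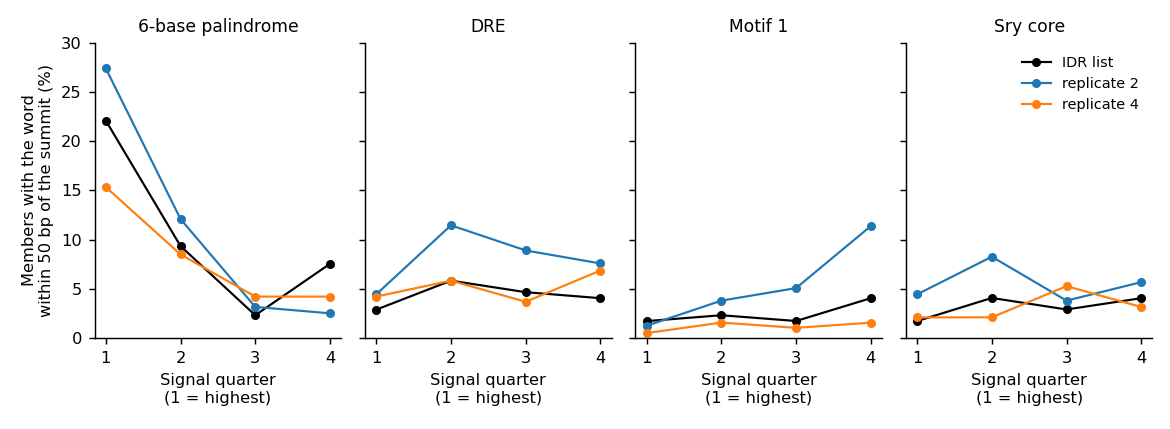
Share of members (y, %) with each of 4 words within 50 bp of the summit, by signal class of members (x, 1 is the highest), in the reproducible list and in each replicate. The 6-base palindrome, drawn first, is at 22.1% in the highest class of the reproducible list and at 2.34% in the third, while none of the other 3 words has its largest share in the highest class of any list.

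A large minority of wide divergent pairs carried a peak. Of all 1523 mutual pairs with a gap of over 250 to 1000 bp, 540 (35.5%) had a summit of the reproducible list within 500 bp of either start site, and of the 988 tight pairs 330 (33.4%) had one. By gap width the share was 44.5% of 663 pairs at over 250 to 400 bp, 34.0% of 447 at over 400 to 600 bp, 23.8% of 256 at over 600 to 800 bp and 20.4% of 157 at over 800 to 1000 bp. Pairs with gaps of over 1000 to 2000 bp, which are outside the rule, had 16.5%. The replicates gave 42.3 ± 4.16% at over 250 to 400 bp, 33.8 ± 3.16% at over 400 to 600 bp, 25.4 ± 2.21% at over 600 to 800 bp and 21.97 ± 4.95% at over 800 to 1000 bp (SD, n = 2). The narrowest width was thus above the widest by more than the spread, whereas neighbouring widths at the wide end were not separated. Wide gaps also offer more bases to find a summit in, and per 100 kb searched the 4 widths had 40.4, 28.3, 18.0 and 12.1 summits, against 33.3 for tight pairs. The narrowest wide pairs and the tight pairs were close in replicate 2, at 39.4% and 36.0% of pairs with a summit, and apart in replicate 4, at 45.2% and 30.5%.

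**Figure D5:**
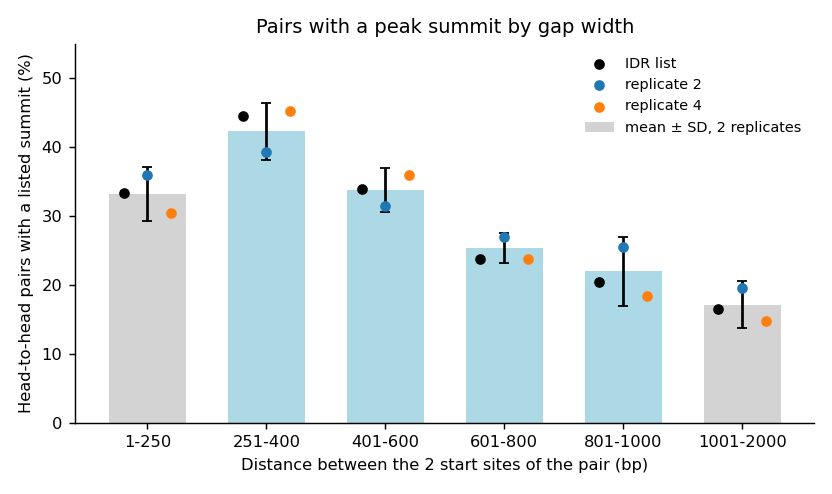
Share of head-to-head pairs with a listed summit within 500 bp of either start site (y, %) by the distance between the start sites (x, bp); blue bars are the widths covered by the rule, grey bars the tighter and wider pairs, bars and whiskers the mean and SD of the 2 replicates, and points each list. The share is highest at over 250 to 400 bp, at 44.5% in the reproducible list, and declines to 16.5% at over 1000 to 2000 bp.

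Counted by gene, 1044 of 3072 genes with a wide pair (34.0%) had a summit within 500 bp of a TSS. The share was 34.9% of genes with a tight pair and 8.77% of genes without a partner, and it was 18.0% over all 13968 protein-coding genes. In the replicates it was 31.3% and 35.4% for wide pairs, 37.5% and 31.9% for tight pairs, and 9.91% and 7.91% for genes without a partner. Wide and tight pairs were in opposite order in the 2 replicates, and each was more than 3 times as high as genes without a partner. The counting favours paired genes, because a peak within 500 bp of both start sites of a pair counted for both genes. In the reproducible list 571 of the 686 members had the partner's start site within 500 bp of the summit. The part of this counting in the difference from genes without a partner was not tested.

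Which genes the members served was described with 23 lists matched by gene symbol, among genes that had a wide pair at any of their start sites. The background is 1023 of 3462 such genes with a member within 500 bp, 29.5%. Both genes of a pair count for 1 peak, so neighbours are not independent. Each gene's value is that of the highest member within 500 bp of it. For 23 of the 51 genes that the naming rule picked from the lists, that summit was nearer to the partner. Of the genes given below this holds for RpL4, mRpL44, mRpL21, TyrRS, AsnRS, Sirt2, Ibf1, Polr2A, Taf6, Rpn13, PolD3, Tom7, CCT6, Exo70, Cdk7 and Gr97a. Summits nearest to the gene itself were listed for RpL4 at 1684, Taf6 at 975, CCT6 at 597 and Sirt2 at 288. Most groups of the translation machinery were above that share. Cytoplasmic ribosomal protein genes had a member at 29 of 42, mostly low ones with a median signal of 283, led by RpS28b at 2793, RpL4 at 1810 and RpL32 at 679. Mitochondrial ribosomal protein genes had one at 18 of 34 with a median of 892, led by mRpL43, mRpL44 and mRpL21, the last at 4380. Aminoacyl-tRNA synthetase genes, which charge tRNAs, had one at 6 of 9, led by GlyRS at 4191, TyrRS at 3196 and AsnRS at 830. Translation initiation factor genes were near the background at 5 of 16, with eIF2Bbeta highest at 1384. With or without a wide pair, 67.4%, 38.4%, 40.6% and 27.3% of the genes of these lists, in the same order, had a summit of the reproducible list. The share was 18.0% over all protein-coding genes, so high shares in these lists were not particular to wide pairs.

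Genes of the transcription and chromatin machinery were above the background share in each of the 5 groups described next. Histone deacetylase and remodeller genes had a member at 8 of 9, led by Snr1, HDAC3 and Sirt2, the last at 1825. Insulator protein genes had one at 4 of 6, among them Cp190, a cofactor shared by fly insulators, at 580, and a single peak of 449 in the gap between Ibf1 and Ibf2, whose products bind insulators and recruit Cp190. RNA polymerase subunit genes had one at 4 of 7, with Polr2A, the largest subunit of RNA polymerase II, at 3788 and Polr1D at 1747. General transcription factor and Mediator genes had one at 9 of 19, with MED16 at 1801 and Taf6 at 1224, and spliceosome genes at 8 of 16, with Prp39 at 2854. With or without a wide pair, the shares of genes with a summit were 50%, 64.3%, 40%, 34% and 43.8% in the same order. These too were above the 18.0% of all protein-coding genes.

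The other housekeeping groups lay on both sides of the background share. Members were found at 6 of 27 respiratory chain genes, with ND-24 highest at 1528, at 4 of 14 proteasome genes, with Rpn13 at 4861, and at 7 of 23 vacuolar sorting and autophagy genes, with Vps45 at 4201. DNA replication genes had 5 of 11, with PolD3 at 2161 and Orc2 at 681, nucleoporin genes 1 of 10 with Nup62 at 939, and mitochondrial import genes 1 of 4 with Tom7 at 238. The COPI, COG and TRAPP transport genes had 3 of 6 with beta'COP highest, the CCT chaperonin genes 2 of 6 with CCT6 at 1009, the exocyst genes 2 of 4 with Exo70 at 3923, and the cyclin and Cdk genes 2 of 4 with Cdk7 at 541.

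Genes of restricted expression had few members. Cytochrome P450 genes had 0 of 11, cuticle protein genes 0 of 11 and chemoreceptor genes 1 of 19, at Gr97a, whose peak of 2241 lay 377 bp from its start site. None of the 29 gap, pair-rule, segment polarity and Hox genes had a wide pair at all, and 1 of them had any summit of the reproducible list within 500 bp.

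Members at the limits of the rule were not of one kind. Just inside the narrow limit, with a gap 1 bp above 250 bp, were 8 members with signals of 219 to 4970, the highest of them CG3434 and Vps45 at 4970 and 4201. Just outside it, with a gap of 250 bp, were 2 peaks with signals of 212 and 213, the higher of them at lili. Just inside the wide limit was RpS7 with a gap of 1000 bp and a signal of 214, followed by SMC1 with a gap of 977 bp, and just outside it was CG11961, with a gap of 1007 bp and a signal of 262. The member with the farthest summit was CG43116, 438 bp inside the gene with a signal of 170, and Gnpat, with a summit at 569 bp and a signal of 629, was the nearest peak excluded by distance. The summit of 1 member lay past the end of its own interval and was used as listed.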

How the data were processed

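Peak lists on dm6 were deposited as narrowPeak files for 2 ChIP-seq libraries. Per the deposited readme files, the authors called a relaxed list for every replicate from its alignment and 1 control alignment, and the reproducible list came from the relaxed lists through the irreproducible discovery rate (IDR) procedure. For aligner, peak caller and IDR threshold, the sources used here give nothing. The signal values are the authors' own, on an unstated scale. The deposited −log10 q-value was a single value in the reproducible list and was not used. No read counts are given, so depth is unknown and intervals cover the number of peaks only.

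The members, gene lists and words were chosen with earlier results of these data known. TSSs came from Ensembl release 115 (all transcripts of protein-coding genes) and sequence from the RefSeq release 6 genome. Summits were matched between lists within 100 bp. Motifs were counted within 50 bp of the summit and in flanks centred 500 bp away. Replicate values used the 3257 highest peaks of each relaxed list, whose levels depend on that length. Named genes were the pairs of the 20 highest members, the 3 highest genes of each list, 6 pairs with several summits, members at the limits of the rule and the highest member of each word. Some items that this rule names are not reported here. The rule was tested on summits planted at known distances close to well-separated annotated start sites. Crowded start sites and the outer part of the promoter window were not covered by that test. Tables were read with pandas 2.3.3 and numpy 2.4.6 under Python 3.11.15, and intervals came from scipy 1.17.1. Alternatives covered the promoter window, gap range, start sites, list length, each replicate alone, the matching distance and the motif window.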

Additional observations from a re-analysis of the deposited data

How the results depend on the processing

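The number of members was 604 to 686 with a promoter window of 250 bp, gaps of up to 750 bp, protein-coding transcripts only or the outermost TSS of each gene, 410 among the 1628 highest peaks of the list, and 629 to 755 in either replicate alone. Restricting to protein-coding transcripts changed no value, since it left the same start sites. The share of summits upstream of the nearest TSS, equal to the share in the gap, was 85.9% with 1 TSS per gene, 90.2% with gaps of up to 750 bp, 93.7% among the 1628 highest peaks, 91.8% for the highest summit of each gap (a choice added after seeing the data) and 85.3 to 86.3% in either replicate alone. The median signal ratio of members over peaks without a partner was 1.17 with 1 TSS per gene, 1.496 among the 1628 highest peaks and 1.16 to 1.21 in either replicate. It was above 1 in each of these settings, which did not include members alone in their gap. The share of wide pairs with a listed summit was 37.9% for gaps of up to 750 bp, 20.9% among the 1628 highest peaks and 33.6 to 36.2% in either replicate. Members matched in both replicates were 57.4% within 50 bp, 94.2% within 200 bp, 87.1% among the 1628 highest peaks and 88.7% for the highest summit of each gap. The median distance to the TSS was 67 to 111 bp and the share in the central 33.3% of the gap 18.6 to 36.4% in either replicate alone. Within 25 and 100 bp of the summit, the share was 5.69% and 17.5% for TAGCTA, 2.19% and 12.7% for the DRE, 1.31% and 6.41% for Motif 1, and 1.75% and 8.75% for AGAGATG. In the highest signal class TAGCTA was at 10.5% and 36.6%, and in the lowest of the 4 classes its share over all alternatives was 1.94 to 8.33%, or 12.8% within 100 bp.

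With 2 replicates, lists of fixed length and no read counts, small differences between classes or widths cannot be placed. The replicates put summits at different distances from the TSS. The median shift was 15 bp among members matched within 100 bp, a limit that caps the shift. Over each replicate's own members the medians were 62 bp upstream in replicate 2 and 106 bp upstream in replicate 4. The level of any share also depends on how far down the list peaks are taken.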

Other observations

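For 60 of the 686 members the partner's own closest head-to-head TSS was another protein-coding start site, which lay inside the gap. The peak between CG17597 and ScpX was among them. A few gaps also held the start of a noncoding gene or a transposable element. Starts of these kinds were found in 12 gaps with 17 members, and comprised 3 noncoding RNA genes, 3 tRNA genes and 7 transposable elements. The highest was the gap between La, which encodes an RNA-binding protein that protects the ends of RNA polymerase III transcripts, and RtGEF. It held a transposable element, and its 2 summits had signals of 1766 and 1154. The gap between CG8944 and the chaperonin gene CCT6 held a jockey2 element and summits of 1009 and 597, and that between Rab18 and the ribosomal protein gene RpL35 held a jockey element and summits of 746 and 579. The gap of 924 bp between CG30122 and CheA56a held a tRNA gene for glycine and one for tryptophan, with a summit of 616 that was 30 bp upstream of CG30122. Reads from repeated elements can map to several places, and how the authors treated them is not given in the sources used here.

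Chromosome 4 had 1 member among its 18 promoter peaks, with 6 wide gaps counted there. Arm 3R had the most members, 201, and also the most wide gaps, 374. Peaks of the pooled relaxed list at wide pairs that did not overlap the reproducible list numbered 1228, had a median signal of 72.0 and lay a median of 30 bp upstream, with 61.2% upstream and TAGCTA within 50 bp of 1.55% of them.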
